A study of Homo sapiens with 12 samples.

Results

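CD44, the cell-surface receptor for hyaluronan, was followed over 12 arrays of SW13 cells with and without the chromatin remodelling ATPase BRG1. The members were all probe sets (groups of short probes read together as 1 signal) that the platform annotation assigned to CD44 and to no other gene. They numbered 13 of the 54675 probe sets on the array, and CD44 was 1 of 19775 genes with a probe set of its own. SW13 is an adrenal cortical carcinoma line that lacks BRG1 protein. Total RNA was hybridized to Affymetrix U133 Plus 2.0 arrays, and each value below is a MAS signal on a linear scale.

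The 4 groups held 3 arrays each. SW13+BRG1 cells, which carried pREP7 with BRG1 isoform C, were irradiated with UV at 10 J/m2 or mock treated. SW13+vector cells, which carried the empty pREP7 vector, were given the same UV dose or mock treated. All cells were collected 6 h after treatment. Each construct was present in a single stable line, so the arrays of a group, described as independent biological samples, repeat 1 line. A p-value between the lines therefore measures the spread among those arrays, and an effect of BRG1 and any other difference between the lines cannot be told apart.

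CD44 spans the plasma membrane once and binds hyaluronan, a long sugar polymer of the extracellular matrix, through its outer domain. Its cytoplasmic tail is tied to the actin cytoskeleton through ezrin, radixin, moesin and ankyrins, and its outer part can be shed by membrane proteases, after which gamma-secretase cuts the remaining stub. Alternative splicing of a block of variant exons gives many forms of the protein, and CD44 is widely used as a marker of mesenchymal and stem-like tumor cells. BRG1 (SMARCA4) is the ATPase of SWI/SNF complexes, which move nucleosomes, and CD44 is among the genes known to need it in several tumor lines.

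In GRCh38.p14, RefSeq places CD44 on chromosome 11 from 35139171 to 35232402 on the plus strand, a span of 93232 bases with 39 curated transcripts. The 250 bases before its start, chr11:35138921-35139170 on the plus strand, are shown because they lie directly before the point where CD44 transcription begins in the annotation. The sequence is from RefSeq and runs 5′ to 3′, with each CpG in capitals.
CD44 promoter: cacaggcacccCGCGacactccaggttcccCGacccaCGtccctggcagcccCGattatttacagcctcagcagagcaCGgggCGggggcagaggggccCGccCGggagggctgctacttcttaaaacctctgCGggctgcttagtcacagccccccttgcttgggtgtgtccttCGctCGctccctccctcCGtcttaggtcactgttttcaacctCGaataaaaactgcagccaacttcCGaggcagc
The window held 15 CpG dinucleotides, more than 57.1% of the 35116 annotated promoter windows of this length, whose median was 11. Its GC content was 62.4%, against a median of 58% over all windows. The GC box GGGCGG, searched on both strands, was present 2 times, 170 and 152 bases before the start, and 42.6% of the windows held at least 1. Neither the AP-1 motif TGANTCA (in 6.57% of windows), nor TATAAA (10.7%), nor the CRE motif TGACGTCA (1.65%) was found in these letters on either strand. The arrays measured RNA alone and gave no reading of methylation or binding in this window.

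The RNA of BRG1 itself was read first. SMARCA4 had 7 probe sets bright enough to be tested. At the brightest, 215714_s_at, signals were 143, 161 and 336 in mock-treated cells labelled SW13+BRG1, against 314, 383 and 920.1 in mock-treated SW13+vector cells. This probe set was called lower in SW13+BRG1 (log2 difference −1.28, SE 0.42, limma adjusted p = 0.0459), which goes against the label; after UV the difference was −1.22 (adjusted p = 0.0511). The call was fragile: it was lost in 8 of the 12 fits that left out 1 array, with −0.81 (adjusted p = 0.162) without mock-treated SW13+vector array 3, and the mean over the SMARCA4 probe sets gave −0.35 (adjusted p = 0.464). Another, 212520_s_at, was called higher in SW13+BRG1 cells after UV by 2.20 (SE 0.45, adjusted p = 0.00284), and 0.62 in mock-treated cells did not pass (adjusted p = 0.408). The remaining 5 were called in neither direction. The sources used here do not say where these probe sets lie relative to the introduced isoform, so the arrays did not settle the labels. BRG1 protein was assessed by immunoblot in the study, which was not analysed here. Each direction between the lines below is that between the lines as labelled. SMARCA2, the alternative ATPase BRM, stayed close to background, with means of 17.4 in mock-treated SW13+BRG1 cells and 14.6 in mock-treated SW13+vector cells.

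Array medians lay between 21.1 and 25.3, and within each group the array of experiment number 3 had the lowest. Log2 signals correlated between 0.879 and 0.917 over the 12 pairs of arrays within groups and between 0.818 and 0.893 over the 54 pairs between groups. Of 9 markers of the adrenal cortex, 2 (CYP17A1 and MC2R) were bright enough to be tested and none was called (1 at an unadjusted p under 0.05 in mock-treated cells by limma and by the methods' t-test). Their summed signal was 80.8 to 112 in irradiated and 77.2 to 116 in mock-treated SW13+BRG1 cells, and 67.5 to 150 in irradiated and 49.8 to 74.6 in mock-treated SW13+vector cells. NR5A1, STAR, CYP11A1, CYP11B1 and HSD3B2 were not bright enough, and CYP21A2 and NR0B1 had no probe set of their own in the annotation. Of the markers of other cell types, PTPRC, LUM and, after UV, TEK were lower in SW13+BRG1 cells, and COL1A1, KRT8 and KRT18 were higher. COL1A1 was called at 1 of its 4 tested probe sets. The fibroblast markers COL3A1, DCN and PDGFRA and the epithelial marker EPCAM were not called between the lines. CDH1, KRT19 and CLDN4, also epithelial, were too dim to test. The part of these markers in the CD44 result was not tested. KRT18, an epithelial keratin, stood at 3755 in mock-treated SW13+BRG1 cells and 188 in mock-treated SW13+vector cells. PTPRC (CD45), the pan-leukocyte marker, stood at 7.07 in mock-treated SW13+BRG1 cells and 123 in mock-treated SW13+vector cells.

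CD44 signals were high with BRG1 and near background with the vector, whether or not the cells had been irradiated. The brightest CD44 probe set over the 12 arrays, 204490_s_at, stands for the gene where genes are compared. Its signals were 3378, 3329.6 and 3305 in SW13+BRG1 cells after UV and 2614, 2583 and 2648 in mock-treated SW13+BRG1 cells. They were 7.60, 23.7 and 16.4 in SW13+vector cells after UV and 18.8, 18.7 and 2.19 in mock-treated SW13+vector cells. The SW13+BRG1 arrays thus ran from 2583 to 3378 and the SW13+vector arrays from 2.19 to 23.7, no higher than about an array median. The log2 difference between SW13+BRG1 and SW13+vector was 8.16 (SE 0.65, limma adjusted p = 1.19e-06) in mock-treated cells and 7.86 (SE 0.65, adjusted p = 1.63e-06) after UV.

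The level of CD44 was ordered as SW13+BRG1 after UV (3337 ± 37.1, SD, n = 3), SW13+BRG1 mock (2615 ± 32.4), SW13+vector after UV (15.9 ± 8.06) and SW13+vector mock (13.2 ± 9.56). The 2 highest groups did not overlap but differed by less than the fold of 2 that a call needed. The 2 lowest overlapped and did not differ beyond their spread.

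**Figure D1:**
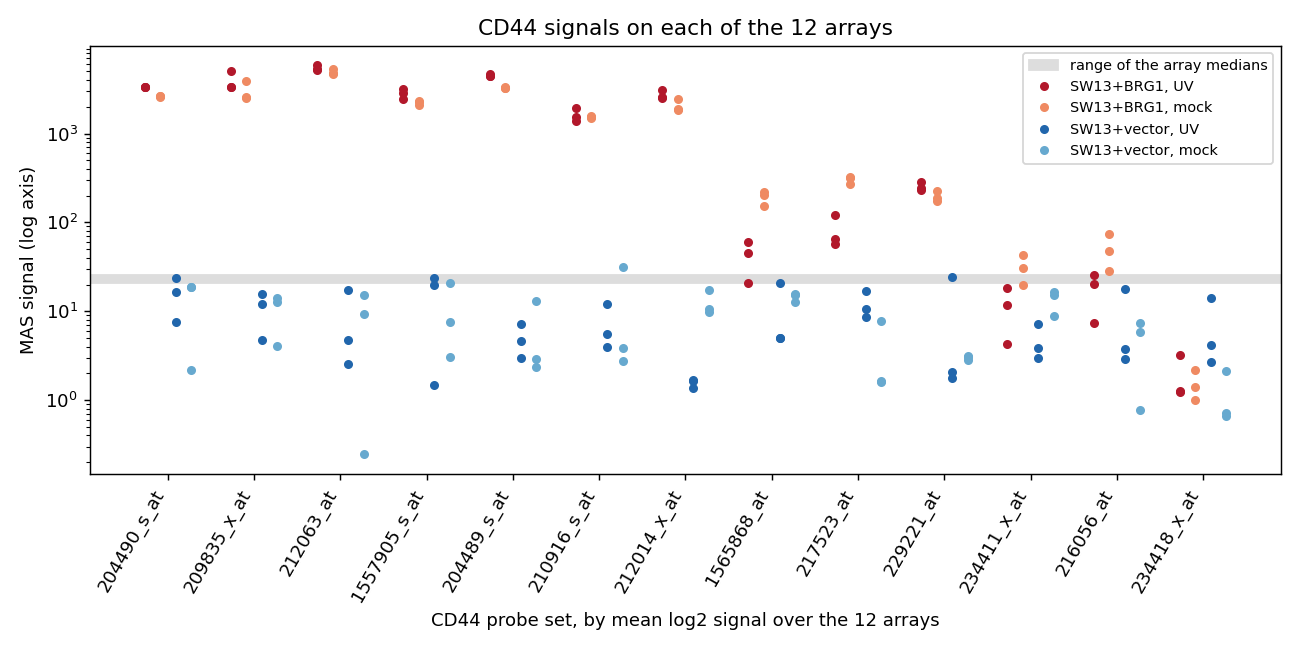
MAS signal (log axis) of each of the 13 CD44 probe sets on each of the 12 arrays; each point is 1 array, red tones are SW13+BRG1, blue tones SW13+vector, and the grey band spans the array medians. At 7 probe sets the group means of mock-treated SW13+BRG1 arrays lie between 1521 and 4899.9, while SW13+vector points lie around or under the grey band at all 13.

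The size of the fold depends on what is taken as background, because the SW13+vector signals hardly rose above it. Of the 66 SW13+vector values at the tested CD44 probe sets, 50 were under the 40th percentile of their array and 63 under its median. When every signal under the 40th percentile of its array was raised to that percentile, the difference at 204490_s_at was 7.27 on the log2 scale (155-fold) in mock-treated cells and 7.49 (180.2-fold) after UV. At 212063_at it was 8.37 (331-fold) in mock-treated cells. With bulk RNA, fewer cells carrying CD44 RNA and less CD44 RNA per cell cannot be told apart.

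The CD44 probe sets fell into 2 sets by brightness. At 7 of the 11 tested, the mean signal in mock-treated SW13+BRG1 cells lay between 1521 and 4899.9, with means of 6.07 to 13.2 in mock-treated SW13+vector cells. At 212063_at the signals were 4761, 4662 and 5277 in mock-treated SW13+BRG1 cells, against 0.246, 15.2 and 9.35 in mock-treated SW13+vector cells, the largest difference of the tested CD44 probe sets in mock-treated cells (log2 difference 10.55, SE 1.14, limma adjusted p = 2.09e-05). At 204489_s_at they were 3276, 3349 and 3291 in mock-treated SW13+BRG1 cells, against 2.90, 12.9 and 2.37 in mock-treated SW13+vector cells (log2 difference 9.53, SE 0.50). The single value of 0.246, far under its companions, widened both the mean difference and the error at 212063_at, whose call held without that array.

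The same division between the lines stood at 209835_x_at, 1557905_s_at, 210916_s_at and 212014_x_at. At 209835_x_at mock-treated cells gave 2567, 2489 and 3906 with BRG1, against 14.01, 12.9 and 4.04 with the vector. At 1557905_s_at they gave 2277, 2097 and 2296 with BRG1, against 7.56, 3.06 and 21.0 with the vector. At 210916_s_at they gave 1526, 1556 and 1481 with BRG1, against 2.76, 31.8 and 3.82 with the vector. In all 4 probe sets the lowest SW13+BRG1 array was far above the highest SW13+vector array, and the log2 differences lay between 7.38 and 8.34.

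The other 4 tested probe sets were dimmer in SW13+BRG1 cells. In mock-treated cells 217523_at gave 323, 269.7 and 313 with BRG1, against 1.62, 7.70 and 1.62 with the vector (log2 difference 6.79, SE 0.58). 229221_at gave 174, 187 and 228 with BRG1, against 2.82, 3.02 and 3.13 with the vector (6.03, SE 0.75). 1565868_at gave 221, 203 and 153 with BRG1, against 12.7, 15.3 and 15.5 with the vector (3.72, SE 0.56). At each of these the groups did not overlap. At 216056_at, the dimmest tested, the signals were 73.4, 47.9 and 28.1 with BRG1, against 5.80, 0.782 and 7.35 with the vector. The difference was 3.84 (SE 1.02, adjusted p = 0.0159); the call was lost without mock-treated SW13+BRG1 array 1 (3.51, adjusted p = 0.0796) or 2 (3.82, adjusted p = 0.0574), or without mock-treated SW13+vector array 2 (2.82, adjusted p = 0.0538).

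A probe set was tested if its signal was at or above the array median on at least 3 of the 12 arrays, and called if the adjusted p was under 0.05 and the fold over 2. In mock-treated cells 11 of the 11 tested CD44 probe sets were called higher in SW13+BRG1, and the arrays of the 2 lines did not overlap at any of them; over all tested probe sets 7.69% were called higher and 18.5% were higher without overlap. All 11 passed the brightness filter through their SW13+BRG1 arrays, so this count is an account of the probe sets and no support of its own. Without the filter 11 of all 13 were called, where 4.52% of all probe sets were called higher. The median log2 difference of the 11 was 7.77, against 0.00 over all tested probe sets.

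The 2 CD44 probe sets that were too dim to test stayed low in both lines. At 234411_x_at the signals were 30.6, 42.6 and 19.5 in mock-treated SW13+BRG1 cells, against 15.4, 16.4 and 8.85 in mock-treated SW13+vector cells, and these groups did not overlap. Fitted without the filter, the difference was 1.17 (adjusted p = 0.402). At 234418_x_at every array gave 13.99 or less, and 1.00, 2.17 and 1.40 in mock-treated SW13+BRG1 cells stood against 0.724, 0.657 and 2.15 in mock-treated SW13+vector cells. The sources used here do not say which exons each probe set reads.

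After UV the difference between the lines persisted. Of the 11 tested CD44 probe sets 10 were called higher in SW13+BRG1 cells, where 7.68% of all tested probe sets were, and the median log2 difference was 7.97, against −0.06 over all. Without the filter 10 of all 13 were called higher, where 4.56% of all probe sets were. The 7 bright probe sets differed by 7.86 to 10.76. The highest, 212014_x_at, had signals of 2604, 2486 and 3057 in irradiated SW13+BRG1 cells, against 1.38, 1.64 and 1.68 in irradiated SW13+vector cells. Of the dim probe sets, 229221_at gave 233, 284 and 244 with BRG1, against 24.5, 2.06 and 1.79 with the vector, and the groups stayed apart.

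The exceptions were among the dim probe sets. At 216056_at, 25.7, 7.32 and 20.1 in irradiated SW13+BRG1 cells overlapped with 3.72, 17.7 and 2.88 in irradiated SW13+vector cells, and the difference of 1.44 (SE 1.02) was not called (limma adjusted p = 0.361). At 1565868_at, 59.6, 44.7 and 20.5 with BRG1 also overlapped with 5.004, 4.96 and 20.6 with the vector. Its difference of 2.25 (SE 0.56, adjusted p = 0.00972) lost the call when the 6 irradiated arrays were fitted alone (adjusted p = 0.0593).

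**Figure D2:**
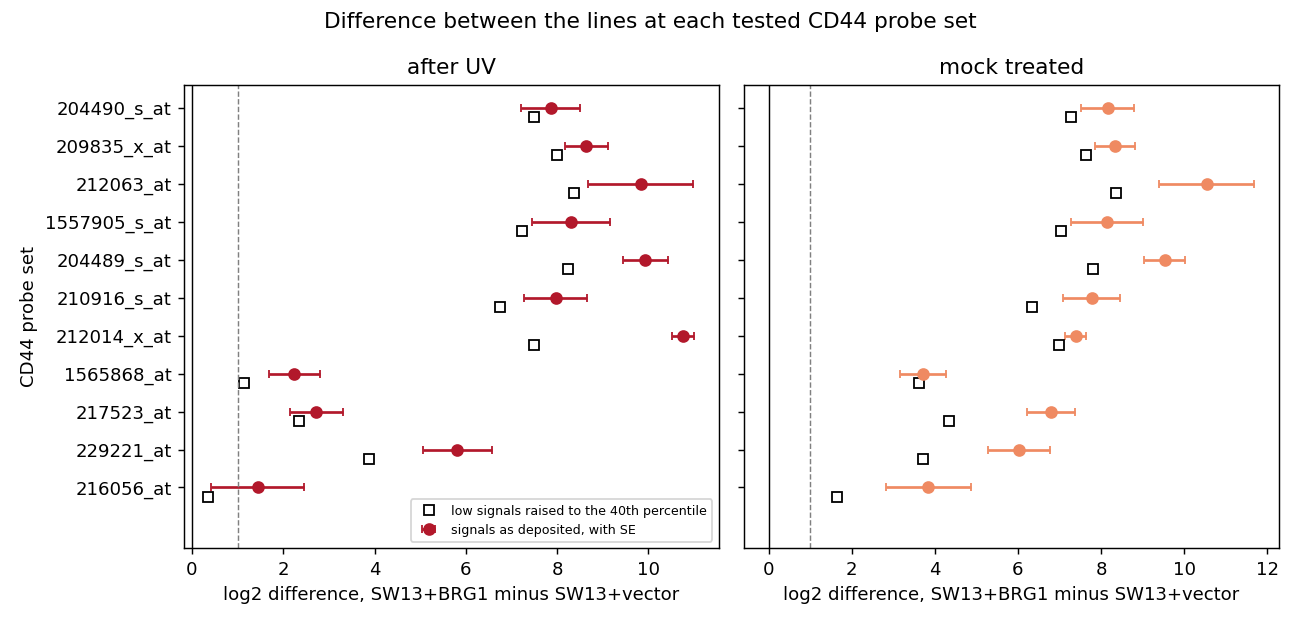
Log2 difference of SW13+BRG1 minus SW13+vector at the 11 tested CD44 probe sets, after UV (left) and in mock-treated cells (right); circles with SE bars use the deposited signals, squares those with low signals raised to the 40th percentile of the array, and the dashed line marks a fold of 2. The 7 bright probe sets lie between 7.38 and 10.55 in mock-treated cells, and the squares lie left of the circles.

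The UV response of CD44 in SW13+BRG1 cells differed among its probe sets. Of the 11 tested, 8 had a log2 difference of 0.08 to 0.45 between irradiated and mock-treated cells and none of these was called higher by limma (0 at an unadjusted p under 0.05, and 2 by the methods' t-test), where 0.561% of all tested probe sets were. The other 3, all dim, had differences of −2.32 to −1.57, and 2 of them were called lower, where 5.81% of all tested probe sets were. Without the filter 1 of all 13 was, where 3.21% of all probe sets were.

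At 1565868_at the signals were 59.6, 44.7 and 20.5 in irradiated SW13+BRG1 cells, against 221, 203 and 153 in mock-treated SW13+BRG1 cells. The groups lay well apart, and the log2 difference was −2.32 (SE 0.56, limma adjusted p = 0.0136). The call was lost without irradiated array 3 (−1.88, adjusted p = 0.061) or without mock-treated array 1 (−2.21, adjusted p = 0.0666) or 2 (−2.28, adjusted p = 0.0575). At 217523_at they were 65.1, 122 and 56.4 after UV, against 323, 269.7 and 313 in mock-treated cells, again with no overlap. The difference was −1.98 (SE 0.58, adjusted p = 0.0363), and it missed the threshold without any 1 of 5 of the 6 SW13+BRG1 arrays (−2.05 to −1.76, adjusted p 0.0897 to 0.128; irradiated array 2 was the exception). At 216056_at the 25.7, 7.32 and 20.1 after UV lay under the 73.4, 47.9 and 28.1 of mock-treated cells, and the difference of −1.57 (SE 1.02) was not called (adjusted p = 0.382), though with low signals raised to the 40th percentile it was −1.19 and called (adjusted p = 0.0309). Over all tested probe sets, 19.9% were lower after UV without overlap, beside these 3 of the 11.

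The bright probe sets moved a little the other way. At 204490_s_at the 3 irradiated SW13+BRG1 arrays were above the 3 mock-treated ones, by 0.35 on the log2 scale (SE 0.65, adjusted p = 0.802). At 204489_s_at the signals were 4461, 4625 and 4448 after UV, against 3276, 3349 and 3291 in mock-treated cells, a difference of 0.45 (SE 0.50, adjusted p = 0.646). At 212063_at they were 5281, 5215 and 5848, against 4761, 4662 and 5277 in mock-treated cells, and the groups overlapped. In all, 5 of the 11 were higher after UV without overlap, where 13.3% of tested probe sets were.

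When the 6 SW13+BRG1 arrays were fitted alone, without the scatter of the SW13+vector arrays near background, the SE at 204490_s_at was 0.09 and its difference of 0.35 had an adjusted p of 0.0298; at 204489_s_at the difference of 0.45 had an SE of 0.09 and an adjusted p of 0.0114. In that fit these 2 probe sets were higher and 1565868_at (adjusted p = 0.00656) and 217523_at (0.00384) lower at an adjusted p under 0.05 with no threshold of fold; over all tested probe sets 4.56% were higher and 8.76% lower. Genes often used as references moved as far in the same comparison: the log2 difference was 0.41 for GAPDH, 0.46 for ACTB, 0.51 for HPRT1, 0.41 for PPIA and 0.57 for B2M, and −1.11 for TBP. When the arrays were scaled to the 18 hybridization control probe sets instead, which moved the median of all probe sets in this comparison to −0.45, the difference at 204490_s_at was −0.04 and those at 1565868_at and 217523_at remained called lower. The direction of the small change at this bright probe set thus differed with the scaling.

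**Figure D3:**
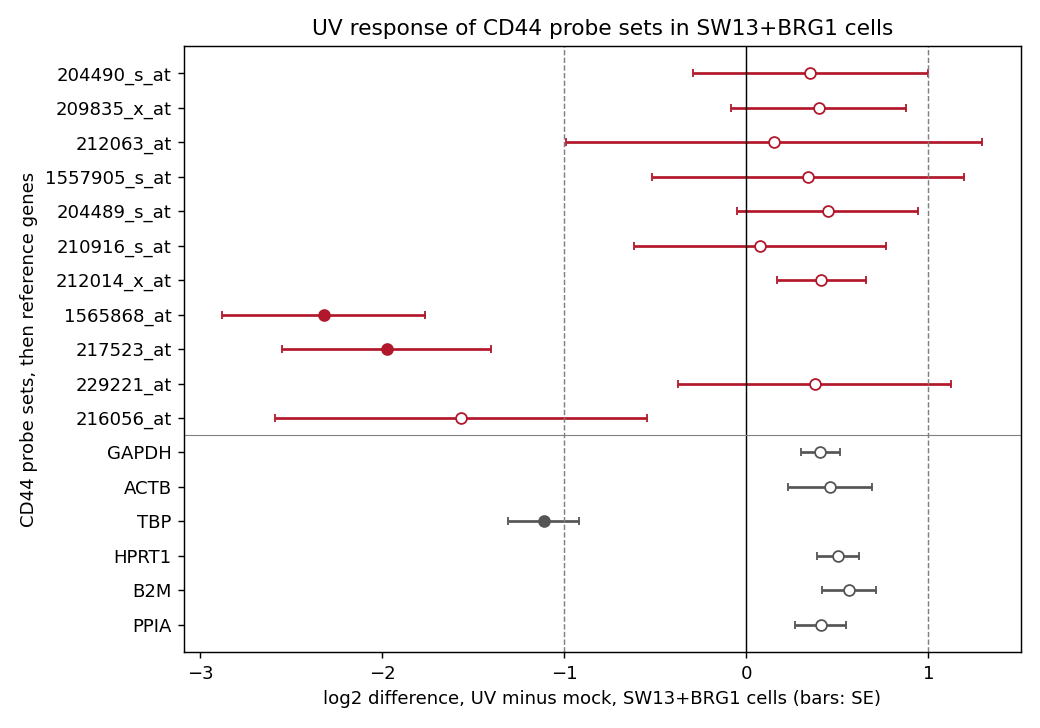
Log2 difference between irradiated and mock-treated SW13+BRG1 cells with its SE, for the 11 tested CD44 probe sets (red) and 6 reference genes (grey); filled points were called, and dashed lines mark a fold of 2 either way. The bright CD44 probe sets lie between 0.08 and 0.45, beside most of the reference genes, and 1565868_at, 217523_at and 216056_at lie between −2.32 and −1.57.

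Within an array, 1565868_at and 217523_at lost ground to the brightest probe set. The log2 ratio of 1565868_at to 204490_s_at was −5.82, −6.22 and −7.33 on the irradiated SW13+BRG1 arrays, against −3.56, −3.67 and −4.11 on the mock-treated ones. The ratio of 217523_at to 204490_s_at was −5.70, −4.77 and −5.87 after UV, against −3.02, −3.26 and −3.08 in mock-treated cells. The ratio of 216056_at, which also fell, was −7.04, −8.83 and −7.36 after UV, against −5.155, −5.75 and −6.56 in mock-treated cells. These ratios do not depend on the scaling of the arrays. Their groups did not overlap, which had to follow, since 204490_s_at rose and these probe sets fell without overlap. The probe sets were picked for their fall in these data, so the separation is no support of its own. The ratios compare a change within each array and say nothing of which probe set reads more RNA.

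In SW13+vector cells UV left CD44 near background. The difference at 204490_s_at was 0.65 (SE 0.65, limma adjusted p = 0.619). Of the 11 tested probe sets 1 was called higher (0.665% of all tested probe sets) and 1 lower (3.60%). The higher one, 217523_at, gave 16.8, 8.59 and 10.7 after UV, against 1.62, 7.70 and 1.62 in mock-treated cells (2.08, SE 0.58, adjusted p = 0.0376). The lower one, 212014_x_at, gave 1.38, 1.64 and 1.68 after UV, against 9.76, 10.6 and 17.5 in mock-treated cells (−2.96, SE 0.25, adjusted p = 4.18e-05). All these signals were under the median of their array, and with signals raised to the 40th percentile the differences were 0.03 (adjusted p = 0.977) and −0.10 (adjusted p = 0.81). The call at 217523_at was also lost in 9 of the 12 fits that left out 1 array (1.71 to 2.30, adjusted p 0.0538 to 0.126).

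The UV effect in SW13+BRG1 minus that in SW13+vector was tested directly. At 204490_s_at it was −0.29 (SE 0.91, limma adjusted p = 1). It passed at 1 of the 11 CD44 probe sets, 212014_x_at (3.38, SE 0.35, adjusted p = 0.00289), where 0.0123% of all tested probe sets were higher; with low signals raised to the 40th percentile it was 0.51 (adjusted p = 0.886). At 217523_at it was −4.06 (SE 0.81, adjusted p = 0.206) and did not pass, but it did with an offset of 16 added to each signal (−2.28, adjusted p = 0.0325) and without mock-treated SW13+vector array 2 (−4.81, adjusted p = 0.0195). At 1565868_at it was −1.47 (SE 0.79, adjusted p = 1), so the fall of this probe set after UV was not shown to differ between the lines.

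The genes that make, bind or act with CD44 were read from lists of 93 genes in all, of which 87 had a probe set of their own and 69 were bright enough to be tested. Between the lines in mock-treated cells 9 were called higher in SW13+BRG1 and 2 lower, against 9.05% and 5.09% of all tested genes. The median log2 difference of the 69 was −0.10, against 0.00 over all tested genes. After UV 9 were higher and 5 lower (9.56% and 6.61% of all tested genes), the 5 being HMMR, SLC7A11, PSEN2, PDHX and NAT10. Means below are over 3 arrays with their SD.

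On the side of the ligand, HAS3, which makes hyaluronan, was higher, at 121 ± 23.7 in mock-treated SW13+BRG1 cells and 45.4 ± 8.14 in mock-treated SW13+vector cells (log2 difference 1.42, limma adjusted p = 0.00105); over the mean of its probe sets the difference was 1.00 and not called (adjusted p = 0.109). HAS1, HAS2 and the hyaluronidases HYAL1, HYAL3 and SPAM1 were not tested. TNFAIP6, which loads proteins onto hyaluronan, was lower, at 7.98 ± 5.63 with BRG1 and 58.1 ± 33.1 with the vector (−3.11, adjusted p = 0.0451), a call lost in 7 of the 12 fits that left out 1 array (−3.11 to −2.14, adjusted p 0.0517 to 0.179; lowest in size without mock-treated SW13+BRG1 array 1) and under the methods' t-test (unadjusted p = 0.0651). SPP1 (osteopontin), another ligand, stood at 826 ± 175 with BRG1 and 1129 ± 5.93 with the vector (−0.47, adjusted p = 0.109). HMMR, a second hyaluronan receptor that also acts in mitosis, was lower, at 486 ± 48.1 in mock-treated SW13+BRG1 cells and 1638 ± 239 in mock-treated SW13+vector cells (−1.75, adjusted p = 1.71e-06), opposite to CD44.

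Of the 7 tested partners of CD44 at the membrane, the growth factor receptors MET and EGFR were called higher, while the EGFR relative ERBB2 differed by 0.22 (limma adjusted p = 0.713) and its relative ERBB3 by 0.13 (adjusted p = 0.861). MET, the receptor for hepatocyte growth factor, stood at 2478 ± 52.5 in mock-treated SW13+BRG1 cells and 34.4 ± 6.52 in mock-treated SW13+vector cells (6.19, adjusted p = 5.71e-08). EGFR stood at 301 ± 67.4 with BRG1 and 24.7 ± 11.1 with the vector (3.70, adjusted p = 5.12e-05). HBEGF, an EGFR ligand that heparan sulfate on CD44 can present, stood at 202 ± 75.6 with BRG1 and 95.3 ± 17.2 with the vector (1.04, adjusted p = 0.00423). The HBEGF call rested on a fold close to 2 and was lost without mock-treated SW13+BRG1 array 3 (0.75) or mock-treated SW13+vector array 1 (0.91). It stood at 1 of the 3 tested HBEGF probe sets, and the mean over them gave 0.52 (limma adjusted p = 0.166). Under the methods' t-test it was lost too (unadjusted p = 0.0505). LRP6, a Wnt co-receptor, differed by −0.80, short of a fold of 2.

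Of the proteins that tie the CD44 tail to the cytoskeleton, MSN (moesin) was higher, at 2758 ± 161 in mock-treated SW13+BRG1 cells and 760.1 ± 46.2 in mock-treated SW13+vector cells (1.86, adjusted p = 5.75e-08). Its relatives EZR (ezrin) and RDX (radixin) differed by −0.13 (adjusted p = 0.534) and −0.75 (adjusted p = 0.000399), under a fold of 2, and NF2 (merlin) by 0.10 (adjusted p = 0.876). ANK2, an ankyrin, was higher, at 215 ± 3.33 with BRG1 and 43.4 ± 23.4 with the vector (2.43, adjusted p = 9.35e-05). It was called at 1 of its 2 tested probe sets. The ankyrins ANK1 and ANK3 differed by 0.11 (limma adjusted p = 0.894) and −0.44 (adjusted p = 0.728) at their brightest probe sets, though ANK3 was called higher at 1 of its 2. FYN, a Src family kinase, was higher, at 537 ± 67.3 with BRG1 and 82.3 ± 3.77 with the vector (2.70, adjusted p = 6.71e-08).

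The proteases that shed CD44 differed little: ADAM10 by −0.38 (adjusted p = 0.234), ADAM17 by −0.10 (adjusted p = 0.701) and MMP14 by −0.16 (adjusted p = 0.838). APH1B and PSENEN, subunits of gamma-secretase, were higher by 1.45 (adjusted p = 0.00107) and 1.03 (adjusted p = 0.00787), PSENEN at the edge of a fold of 2 and under it without mock-treated SW13+BRG1 array 1 (0.98) or 2 (0.92) or mock-treated SW13+vector array 3 (0.72). The PSENEN call was also lost under the methods' t-test (unadjusted p = 0.0632). Of 10 tested splicing regulators that act on CD44 transcripts, none was called between the lines in mock-treated cells by limma, where 5 had an unadjusted p under 0.05 and 3 did by the methods' t-test, none of them with a fold over 2. Over all tested genes 9.05% were called higher and 5.09% lower, so 0 of 10 is near the background. The count reads each gene at its brightest probe set. Of its 8 tested probe sets, SRSF1 was called lower at 1 in mock-treated cells and at 4 after UV, and SRSF10 at 1 of 5 after UV. ESRP1, which favors the epithelial forms, was too dim to test, and its relative ESRP2 had no probe set of its own. None of the 3 DNA methyltransferases was called between the lines in mock-treated cells either (2 at an unadjusted limma p under 0.05 and 0 by the methods' t-test), with DNMT3B at −0.63 (adjusted p = 0.135). A count of 0 of 3 is also near the shares over all tested genes.

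**Figure D4:**
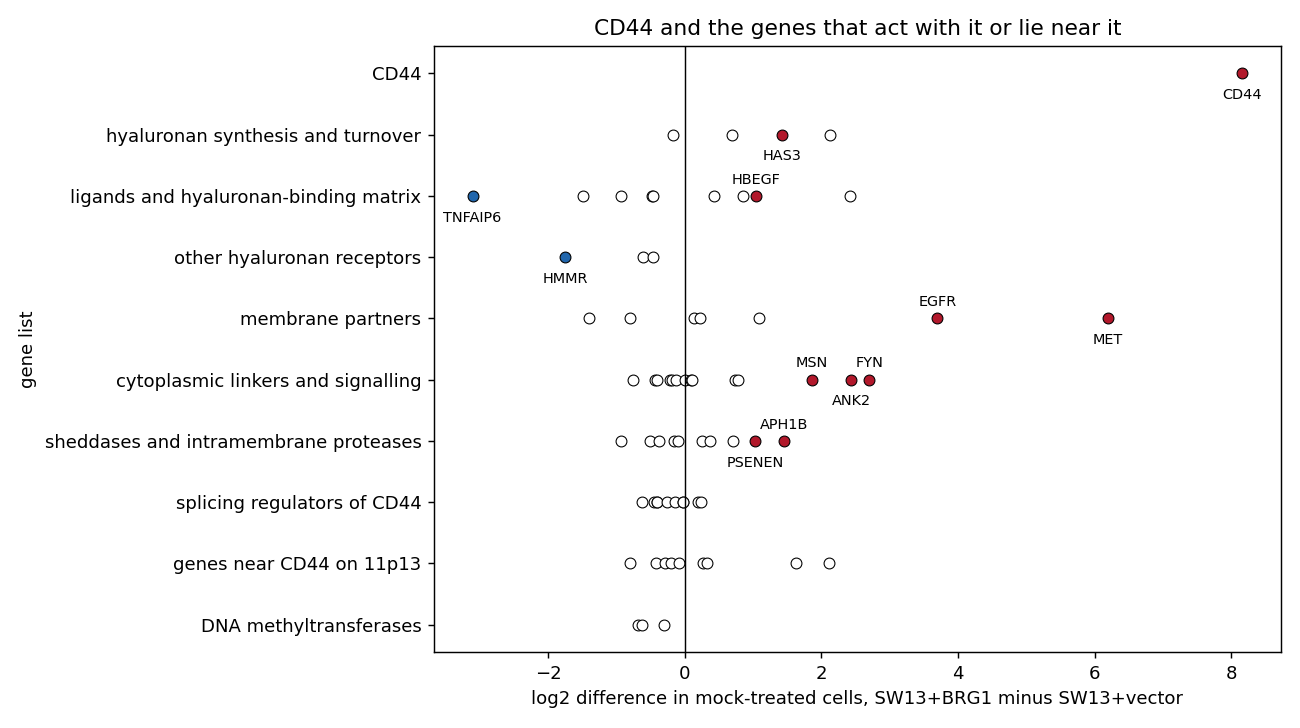
Log2 difference of SW13+BRG1 minus SW13+vector in mock-treated cells for CD44 (brightest probe set) and the tested genes of 9 lists; each point is a gene, red called higher, blue called lower, white not called. CD44 lies at 8.16, MET at 6.19 and EGFR at 3.70, while the splicing regulators and the neighbors on 11p13 hold no called gene.

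In mock-treated cells the neighbors of CD44 on chromosome 11 held no called gene between the lines. SLC1A2, the nearest listed gene beyond its end at 18.8 kb, was too dim to test, and PDHX, the nearest before its start at 143 kb, differed by −0.42 (adjusted p = 0.0971) in mock-treated cells. Of 9 tested genes within about a megabase none was called by limma between the lines in mock-treated cells, where 5 had an unadjusted p under 0.05 and the methods' t-test gave 2; 9.05% of all tested genes were called higher and 5.09% lower, so a count of 0 of 9 is near the background. The signals of PAMR1, which lies 199 kb beyond CD44, were 43.4, 57.4 and 27.2 in irradiated SW13+BRG1 cells, against 2.32, 2.08 and 4.83 in irradiated SW13+vector cells, with no overlap, and it was called higher (log2 difference 3.83, SE 0.72, adjusted p = 0.00152). In mock-treated cells it gave 47.1, 45.01 and 28.7 with BRG1, against 20.3, 3.37 and 11.1 with the vector, and the difference of 2.11 narrowly missed the threshold (adjusted p = 0.054). ABTB2 differed by 1.63 in mock-treated cells (adjusted p = 0.056). After UV PDHX and NAT10 were lower in SW13+BRG1. Of the 9 tested neighbors 1 was thus called higher and 2 lower after UV, where 9.56% and 6.61% of all tested genes were. PDHX was also lower after UV within SW13+BRG1 cells, at 154 ± 17.6 in irradiated and 361 ± 52.3 in mock-treated cells (−1.23, adjusted p = 0.000399).

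Genes of the lists that responded to UV were few. In SW13+BRG1 cells 1 was called higher and 3 lower (0.535% and 6.27% of all tested genes), and in SW13+vector cells also 1 and 3 (0.528% and 3.93%). HBEGF was the higher one in both lines, at 1083 ± 92.7 in irradiated and 202 ± 75.6 in mock-treated SW13+BRG1 cells (2.48, limma adjusted p = 2.17e-05), and at 276 ± 13.9 in irradiated and 95.3 ± 17.2 in mock-treated SW13+vector cells (1.55). LRP6 was lower in both lines, with a log2 difference of −2.65 with BRG1 and −2.68 with the vector. HBEGF and LRP6 each had 3 tested probe sets, and each was called in its direction at 2 of them with BRG1 and at 1 with the vector. DNMT3B was lower too, with −1.35 with BRG1 and −1.09 with the vector, and MET with −1.78 with the vector, where it was near background. With the vector, DNMT3B lost its call in 4 of the 12 fits that left out 1 array (−1.13 to −0.93, adjusted p 0.0671 to 0.0913) and under quantile normalization (−0.93, adjusted p = 0.0783), and MET lost it when only the compared arrays were fitted (adjusted p = 0.132) and by the mean over its probe sets (−0.63). CD44 at its brightest probe set was not among these genes, and no gene of the lists passed the limma test of a difference in UV effect between the lines (3 of 69 at an unadjusted p under 0.05), where 0.0145% of all tested genes were higher and 0.0506% lower.

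The genes whose log2 signals ran most like those of 204490_s_at over the 12 arrays were TGFA (Pearson r 0.9914), SP100 (0.9901), S100A10 (0.9897), CABLES2 (0.9883), CDH2 (0.9883), CALD1 (0.9878), GPR160 (0.9871) and LMO4 (0.9867). Of 13833 other genes 2 reached 0.99, 299 reached 0.95 and 758 reached 0.9. The arrays split by line, and CD44 differed most by line. After each group mean was subtracted, r lay between 0.62 and 0.841 over the same 12 arrays, which share their scaling. The genes were picked by r over these arrays, so this remaining r is no support of its own. In mock-treated SW13+vector cells, CD44 (2.19) and each of these genes had their lowest signal on array 3.

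Each of these 8 genes was higher in SW13+BRG1 cells. CDH2 (N-cadherin), a mesenchymal adhesion protein, stood at 1374 ± 64.7 in mock-treated SW13+BRG1 cells and 14.3 ± 10.9 in mock-treated SW13+vector cells (log2 difference 7.16). SP100, a component of PML nuclear bodies, differed by 7.31, and LMO4, a LIM-only cofactor, by 6.15. TGFA, an EGFR ligand, stood at 430.4 ± 15.3 with BRG1 and 27.2 ± 12.9 with the vector (4.13), and S100A10, the partner of annexin A2, at 846 ± 91.1 with BRG1 and 48.2 ± 22.3 with the vector (4.24). CALD1 (caldesmon), which binds actin, differed by 3.88, GPR160 by 2.61 and CABLES2 by 1.33. None was called by limma in either direction after UV in SW13+BRG1 cells (1 at an unadjusted p under 0.05, and 3 by the methods' t-test). These genes were picked for their likeness to CD44, so their differences are given as values only.

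**Figure D5:**
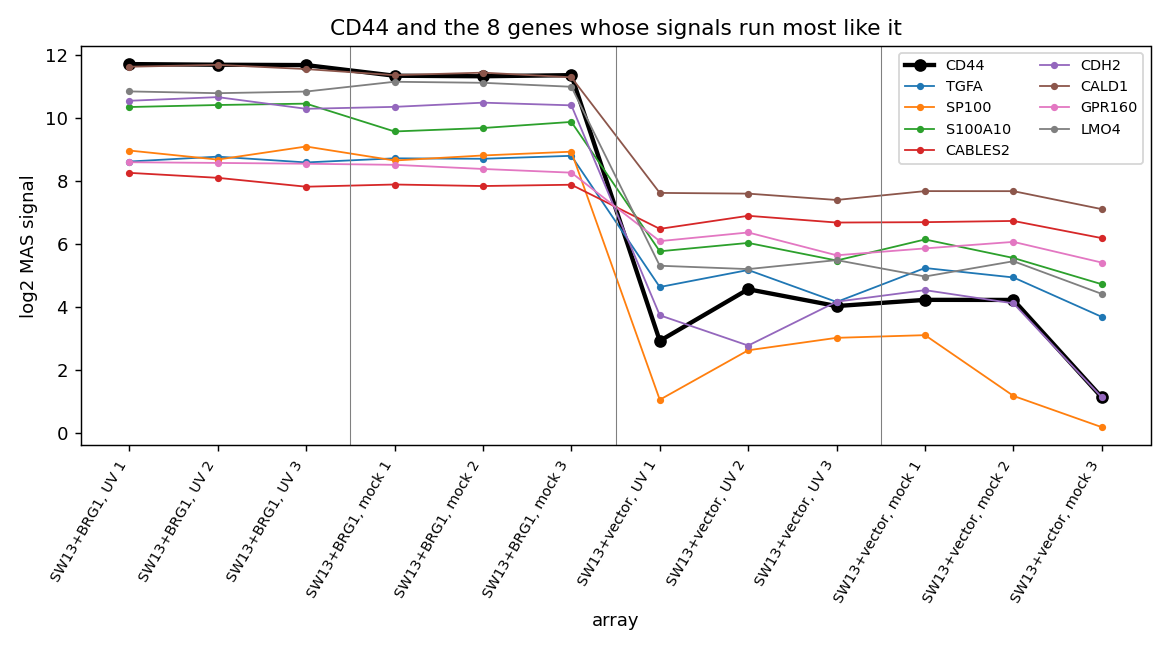
Log2 MAS signal of CD44 (black) and the 8 genes with the highest Pearson r to it on each of the 12 arrays, SW13+BRG1 on the left and SW13+vector on the right of the middle line. CD44 drops by 8.16 on the log2 scale in mock-treated cells.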

How the data were processed

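The authors hybridized total RNA to Affymetrix U133 Plus 2.0 arrays, summarized probe sets with MAS under default settings (version not given in the sources used here) and brought every array to a target mean of 125. The deposited signal intensities are linear, 1 per probe set and array, and their mean without the outer 2% was 125 on each array. Columns were matched to samples by title, and the number of arrays limits the precision. Gene names came from the platform annotation, which gave 1 gene to 41097 probe sets, several to 1801 and none to 11777. Its symbols matched the current RefSeq ones.

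Signals were taken to log2 without further normalization. The 54613 probe sets that are not controls were filtered as the report states, which left 32622, and fitted with limma 3.58.1 (R 4.3.3) with a mean per group, a variance prior that follows intensity and Benjamini-Hochberg adjustment over all tested probe sets. A gene (13834 tested) was read at its brightest tested probe set. The authors called genes by a t-test for unequal variances at p under 0.05 and a fold of 2, which was run as an alternative. Other alternatives were the filter, the normalization, an offset, a floor, the samples fitted, the replicate block and each array left out. Arrays numbered 3 left out and scaling to hybridization controls were added after the values were seen. Named genes were up to 4 per list with the largest called difference between the lines in mock-treated cells, up to 3 per list called after UV in either line, members central to CD44, its nearest neighbors and the 8 genes most like it. PAMR1, ABTB2, ERBB2, ERBB3, NAT10, SLC7A11, PSEN2 and the reference genes were named after their values were seen. CD44 and the lists were chosen with earlier results of these data known. On simulated data with the real means of the contrast between lines in mock-treated cells (32622 probe sets, 50 changed per fold), 44% of changes of 2.5-fold, 56% of 4-fold, 88% of 8-fold and 82% of 16-fold were recovered.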

Additional observations from a re-analysis of the deposited data

Results flagged for a closer look

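At the CD44 probe set 212014_x_at the UV effect in SW13+BRG1 cells minus that in SW13+vector cells was 3.38 on the log2 scale (limma adjusted p = 0.00289), a difference that was itself tested. UV changed the probe set by 0.41 in SW13+BRG1 cells and by −2.96 in SW13+vector cells. The SW13+vector signals behind it were 1.38, 1.64 and 1.68 after UV and 9.76, 10.6 and 17.5 in mock-treated cells, all under the median of their array. With an offset of 16 added to each signal the difference was 1.10 (adjusted p = 0.14), and with low signals raised to the 40th percentile 0.51 (adjusted p = 0.886). None of the other 10 tested CD44 probe sets passed this test with the signals as deposited. At 217523_at the difference had the opposite sign, −4.06 (adjusted p = 0.206), and it passed with the offset of 16 (−2.28, adjusted p = 0.0325) and without mock-treated SW13+vector array 2 (−4.81, adjusted p = 0.0195).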

How the results depend on the processing

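The difference of CD44 between the lines kept its direction at 204490_s_at under every alternative run, from 6.55 to 8.67 on the log2 scale in mock-treated cells (7.12 to 8.67 with any 1 array left out) and from 6.75 to 8.22 after UV, and lost its call under the methods' t-test with Benjamini-Hochberg adjustment alone (8.16, adjusted p = 0.127; after UV 7.86, adjusted p = 0.0573). Under that test 3 CD44 probe sets passed in mock-treated cells and 4 after UV, with 4 and 7 genes of the lists, and 0 of either for UV in either line. The count of CD44 probe sets called for UV in SW13+BRG1 cells, 2, was 1 with no filter, a filter on 6 of 12 arrays, quantile normalization, no trend in the prior or no arrays numbered 3, and 0 to 2 with 1 array left out. In SW13+vector cells it was 1 with no filter, no trend, the unadjusted methods' t-test or hybridization-control scaling, 0 with the offset of 16, the floor or the compared arrays only, and 1 to 2 with 1 array left out. The count for the difference in UV effect, 1, was 0 with the floor and 1 to 2 with 1 array left out, the 2 without mock-treated SW13+vector array 2, where 217523_at joined (−4.81). With the offset it stayed at 1 but at another probe set, 217523_at (−2.28, adjusted p = 0.0325) in place of 212014_x_at (1.10, adjusted p = 0.14).

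Small UV differences changed sign. In SW13+BRG1 cells the mean over the CD44 probe sets gave −0.30, where 204490_s_at alone gave 0.35. The differences were −0.26 at 212063_at and −0.16 at 210916_s_at under quantile normalization, and −0.082 at 210916_s_at without the arrays numbered 3 (−0.062 to 0.19 with 1 array left out). Scaling to hybridization controls gave −0.040 at 204490_s_at, −0.24 at 212063_at, −0.052 at 1557905_s_at, −0.31 at 210916_s_at and −0.016 at 229221_at; it moved the median of all probe sets to −0.45 for UV in SW13+BRG1, −0.27 for UV in SW13+vector, −0.21 between the lines after UV and −0.16 for the difference in UV effect. UV in SW13+vector cells gave −0.48 at 204490_s_at without the arrays numbered 3 (−0.39 to 1.16 with 1 array left out), 0.16 at 1565868_at with the floor and −0.19 to 1.43 at 216056_at with 1 array left out. The difference in UV effect at 204490_s_at was 0.19 with the offset, 0.22 with the floor, 0.85 without the arrays numbered 3 and −0.81 to 0.74 with 1 array left out.

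Of the lists, the offset gave 2 genes called for UV in SW13+vector cells; no fold threshold gave 21 and 25 between the lines in mock-treated and irradiated cells and 7 for UV in SW13+BRG1 cells; hybridization-control scaling gave 8 there, and 4 to 7 were called with 1 array left out, the 7 without mock-treated array 1. Without the arrays numbered 3, 1 passed for the difference in UV effect. Mock differences near 0 turned at SMARCA2 (−0.040 at a common median, −0.40 by the mean over probe sets, −0.43 to 0.70 with 1 array left out), EZR (0.021) and ADAM17 (0.034) by that mean, ADAM17 without the arrays numbered 3 (0.067; −0.21 to 0.034 with 1 left out), NF2 (−0.16 to 0.37) and MMP14 (−0.44 to 0.18). The causes were not tested.

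Over 18 pairs of arrays of the same experiment number in different groups, deviations from the group means correlated between 0.0152 and 0.293, 11 of them over 0.1, against −0.223 to 0.137 over 36 pairs of different numbers. In all, 9 of 12 arrays correlated best with their own number. The arrays numbered 3 stood apart. Pairs among them lay between 0.179 and 0.293, and every pair of one with another number was negative (−0.223 to −0.0562). Numbers 1 and 2 correlated across numbers at up to 0.137 and within them at up to 0.141. The numbers were not treated as pairing. With the replicate block, 11, 10, 2, 2 and 1 CD44 probe sets were called over the 5 comparisons, as without it, 13, 15, 6 and 4 genes of the lists over the first 4, and 204490_s_at differed by 8.16 in mock-treated cells.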
